A study of Drosophila melanogaster with 27 samples.

Results

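The 1303 H4K20me1 peaks described here are all the peaks on the X chromosome in the authors' deposited list for wild-type wing discs of Drosophila melanogaster, out of 6914 peaks in all. They were chosen by chromosome alone. The list comes from CUT&RUN, in which an antibody tethers micrococcal nuclease to chromatin and the released DNA is sequenced. It sets Oregon-R discs stained for monomethylated lysine 20 of histone H4 (H4K20me1, n = 3 libraries) against Oregon-R discs without primary antibody (n = 3). Oregon-R is a wild-type laboratory strain with no transgene or mutant allele named in the labels. Each library held 20 wing imaginal discs, the larval epithelia that form the wing and notum, from female wandering larvae of instar 3 raised at 25 °C. The labels do not say whether the 3 libraries of a group came from separate crosses or days. The series also holds Set8 and histone H4 mutants with their wild-type transgene controls, 21 libraries in 8 groups, which were not analysed here.

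H4K20me1 is written by Set8 and turned into higher methylation states by Hmt4-20. In mammals the mark is enriched on the inactive X of females, and in Caenorhabditis elegans on the dosage-compensated X chromosomes of hermaphrodites. Drosophila does it differently: the male X is raised in output by a complex that acetylates histone H4 and contains the roX RNAs, and the pair of X chromosomes in females is not compensated. X in these female discs is therefore present in the same number as each autosome, and the autosome arms serve below as background.

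The list gives the position and width of each peak and nothing on its strength or on single libraries. All values below are therefore descriptions of 1 list, with no error between libraries. Differences between arms were not tested. Intervals of shares are 95% Wilson intervals that cover the counting of genes only, and neighbouring genes are not independent of each other.

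By share of the whole span, X was covered by peaks to much the same extent as the 4 large autosome arms. Its peaks amounted to 3.02 Mb, or 12.8% of a span of 23.5 Mb, against 12.4% of 2L, 14.3% of 2R, 12.6% of 3L and 13.3% of 3R. These spans hold unequal amounts of nearly empty sequence. In bins of 1 Mb, the first 4 of 2R had 0% to 0.795% coverage and the first 4 of 3R 0% to 0.890%. The lowest full bin of X had 1.49%. Leaving out 2 Mb next to the centromere (closing section) removes only part of such sequence. Peak density on X was 55.4 per Mb, which lies within the range of the autosome arms, from 47.3 per Mb on 3L to 56.1 per Mb on 2R. X holds fewer protein-coding genes per Mb (93.3) than any of these 4 arms (97.6 to 113), and its genes are longer, with a median of 2520 bp against 1986 to 2130 bp.

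Along X the mark was uneven, with dense and nearly empty megabases side by side. In 23 full bins of 1 Mb, coverage ranged from 1.49% to 28.9%, with a median of 13.2% (13.1% ± 6.51, SD over bins). The densest was bin 20 from the distal tip, at 28.9%, which holds kek5 and 126 protein-coding genes, of which 57 had a peak. The next were bin 2, with br and arm (22.4%), and bin 3, with sgg (19.7%). Bin 15 stood out as low in the middle of the arm, at 2.77%, with 18 of 88 genes marked. The 3 full bins nearest the centromere had 1.49% to 4.59%, and 56 of their 182 genes (30.8%) carried a peak, against 861 of 2002 (43.0%) in the other 20. The 3 differed, with 23.5%, 45.5% and 26.1% of genes marked in bins 21, 22 and 23. Bins with more genes tended to have more coverage, with Pearson's r of 0.58 and Spearman's rho of 0.54 over the 23 bins of X. The same values were 0.70 and 0.59 over 108 bins of the autosome arms. Bins of 1 list share its libraries and depth.

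**Figure D1:**
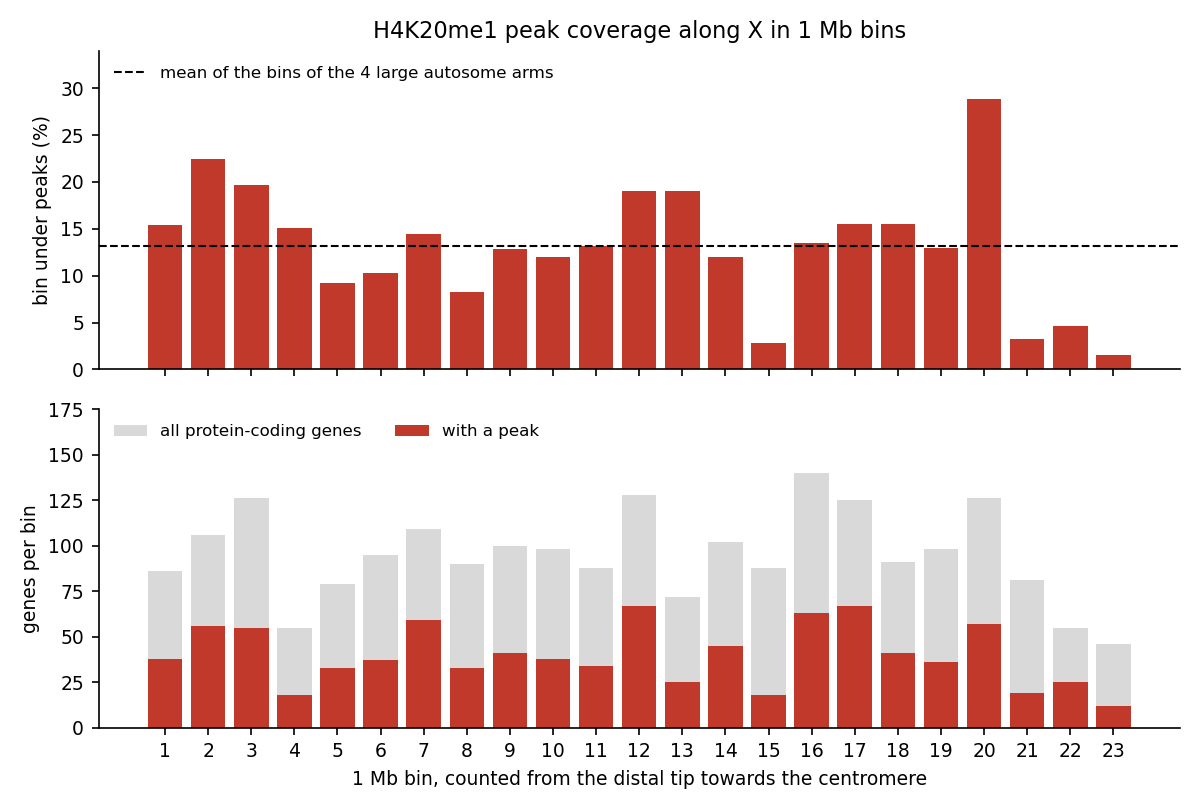
Upper panel: share of each full 1 Mb bin of X under H4K20me1 peaks, in order from the distal tip, with the mean of all bins of the 4 large autosome arms (13.2%) as a dashed line. Lower panel: protein-coding genes per bin (grey) and those with a peak (red). Bin 20 reaches 28.9%, and bins 15 and 21 to 23 lie below 5%.

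Peaks on X were mostly short. The median width was 1100 bp (quartiles 300 and 2725 bp), and the range was 150 to 47000 bp. The autosome arms had medians of 1050 to 1150 bp and upper quartiles of 3000 to 3300 bp. The narrowest width, 150 bp, made up 200 X peaks (15.3%), within the 14.3% to 16.9% of the autosome arms. At the other end stood 52 X peaks with a width of at least 10 kb (3.99%), which made up 27.7% of all sequence under X peaks. The autosome arms had 4.55% to 5.28% of their peaks in this class, holding 29.6% to 35.2%. Wide peaks were thus a slightly smaller part of the mark on X than on each of these 4 arms. On chromosome 4 they were a smaller part still, 3.23% of 93 peaks, holding 17.4%. The wide X peaks fell on 78 protein-coding genes, and 28 of the 52 touched a single gene.

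**Figure D2:**
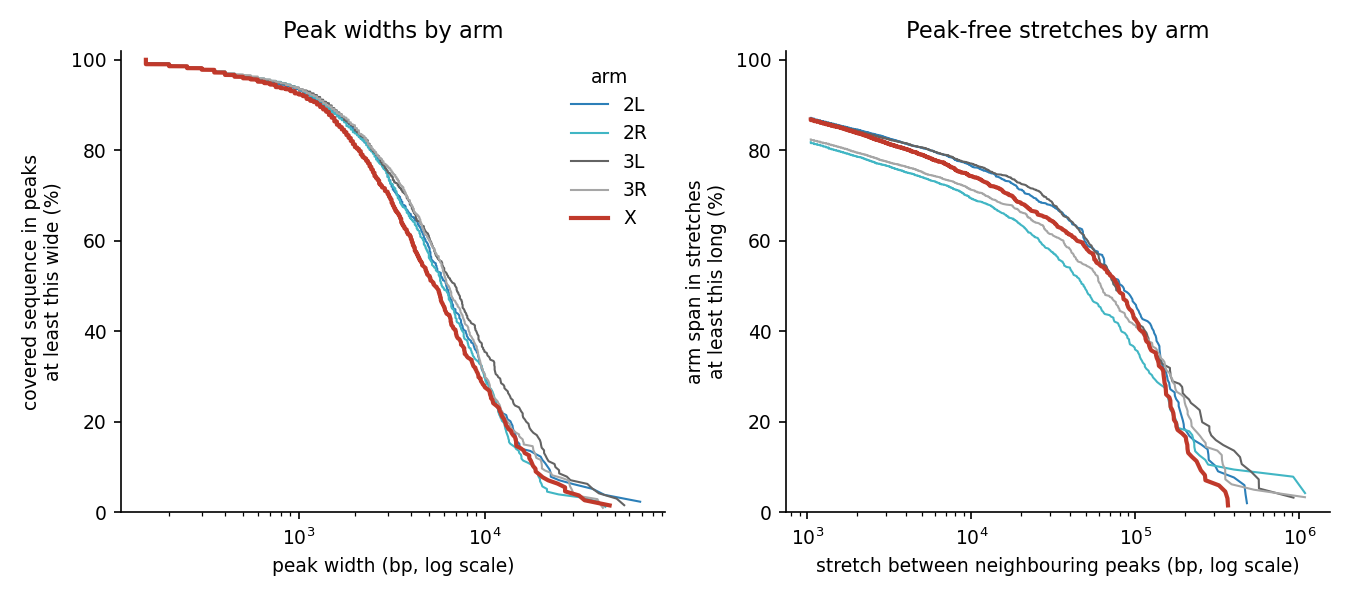
Left: share of the covered sequence of each arm held by peaks of at least a given width. Right: share of each arm's span held by stretches between neighbouring peaks of at least a given length, both on a log axis. The red X line lies lowest around 10 kb in the left panel, where wide peaks hold 27.7% of X coverage, and ends first in the right panel, at 366600 bp.

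The 12 widest X peaks ranged from 18.2 to 47.0 kb and are given here by gene. The broadest, X 19390251 to 19437250 (47.0 kb), lay inside kek5, a leucine-rich repeat and immunoglobulin transmembrane protein of the Kekkon family. It was 1 of 8 peaks in the gene, which also had peaks of 16.2, 12.0 and 11.4 kb, and together they covered 98750 bp, or 83.2%. Most of the gene was thus under peaks, with breaks between them.

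Second came 34.5 kb at X 1635401 to 1669850, over the end of br with higher coordinates and past it. The gene br encodes ecdysone-induced zinc finger proteins. This peak also covered dor, a vacuolar sorting gene, and CG3740 completely, and part of hfw. A second peak in br measured 32.1 kb, and 5 peaks covered 85.3% of it. The mucin-related gene Mur2B encloses br and shares nearly all of its coverage.

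CG43759 had 2 of the 6 widest peaks, of 27.1 and 24.7 kb, and was covered to 76.6% by 8 peaks. In Ten-a, a teneurin adhesion gene of 292 kb, peaks of 27.1 and 18.2 kb began 225603 and 161003 bp from its lower end. The first of them was shared with CG45603. All 22 peaks of Ten-a began at least 161003 bp from its lower end. They followed a stretch of 177 kb without a peak that starts before the gene. Coverage of Ten-a was therefore high over part of the gene and nil over the rest, which the mean of 27.1% does not show.

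The transcription factor gene ovo, which controls epidermal hairs and the germline, had a single peak of 22.0 kb. It lay wholly inside the gene, began 428 bp from its lower end and covered 96.9%. A peak of 20.5 kb ran from sd, the DNA-binding partner of the growth regulator Yorkie, across the clathrin heavy chain gene Chc. Together with a separate peak of 2650 bp in sd, it left sd covered to 69.8%. Chc was covered to 87.5%. The other widest peaks lay in the kinase gene Drak (19.7 kb), in Moe, which links actin to the membrane (18.8 kb), and in the immunoglobulin gene sdk (18.8 kb). By covered sequence the next genes were the co-repressor gene Smr (44900 bp, 76.9%), ec (37021 bp, 80.6%), sgg (35700 bp, 78.3%), CG3655 (31500 bp, 50.9%) and the kinase gene Tlk (31500 bp, 45.2%). The gene sgg encodes the GSK3 kinase of the Wingless pathway.

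Some long genes held many peaks. On X, 643 genes had exactly 1 peak and 53 had at least 5. Ten-a led with 22 peaks, followed by mgl with 20 peaks over 142 kb (11.1% covered), CG43658 with 19 (11.7%) and Fas2, a neural adhesion gene, with 15 (17.1%). The counts for genes other than Ten-a were picked out after their values were seen. No neighbouring X peaks were closer than 1050 bp, which was also the smallest gap in the whole list. How the authors joined neighbouring windows is not given in the sources used here, and its part in the number of peaks per gene was not tested.

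Nearly all of the mark on X lay within genes. Protein-coding gene bodies take up 70.7% of X and held 98.2% of its peak sequence, against 66.4% and 97.6% on the 4 autosome arms together. Within gene bodies 17.8% of the sequence of X was under a peak, and outside them 0.788%. Each of the 4 large autosome arms was higher, with 18.3% to 21.2% within gene bodies and 0.840% to 1.14% outside them. Of 970 X peaks over exactly 1 protein-coding gene, 909 (93.7%) lay wholly inside it and 61 crossed 1 of its ends, by a median of 79 bp. Coverage fell towards both ends of genes. This was measured in the 411 marked X genes that are 2 kb or longer and free of other protein-coding genes. Mean coverage was 54.9% in their central 40% and 36.3% in the outermost 20% at either end of the gene. The middle was higher in 270 of them and lower in 121. The autosomes had 55.9% and 42.0% in 1526 genes. The genes were chosen for having a peak, so their levels are a description.

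Only 25 X peaks (median 200 bp) touched no protein-coding gene. Of these, 11 had the narrowest width, 7 lay over another annotated gene such as a long non-coding RNA, and 7 lay within 1000 bp of a protein-coding gene. The widest was 1400 bp, at X 6004851 to 6006250 near mab-21. Another 8 lay beyond ATbp, at X 23122051 to 23510200, in the stretch next to the centromere, where protein-coding genes end. One of them overlaps a 28S ribosomal RNA pseudogene, a repeated sequence in which the placing of reads is uncertain.

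Of 2197 protein-coding genes on X, 924 had a peak (42.1%, 95% CI 40.01 to 44.1), where the background over all 13922 genes was 38.3%. The autosome arms ranged from 33.1% on 2L to 41.04% on 2R, and the intervals of X and 2R overlapped. Complete coverage ran the other way. Only 64 X genes (2.91%, 95% CI 2.29 to 3.70) lay wholly under a peak, against a background of 4.57%. The lowest autosome arm was 2L at 3.31% (95% CI 2.70 to 4.06) and the highest 2R at 6.52% (95% CI 5.67 to 7.49). At a limit of 50% of the gene body, X stood at 18.0% (396 genes), beside a background of 18.3%. Without regard to gene length, X thus had the highest share of these 5 arms for genes touched by a peak and the lowest for genes filled by one. Small chromosome 4, with 80 protein-coding genes, had 56.25% touched and 0 filled. Its genes are longer, with a median of 10090 bp against 2520 bp on X. For genes of 10 to 20 kb on the 4 large autosome arms, the shares were 55.4% touched and 0.793% filled. As a share of the genes with a peak, 6.93% (95% CI 5.46 to 8.75) were filled on X and 10.01% to 15.9% on the autosome arms.

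**Figure D3:**
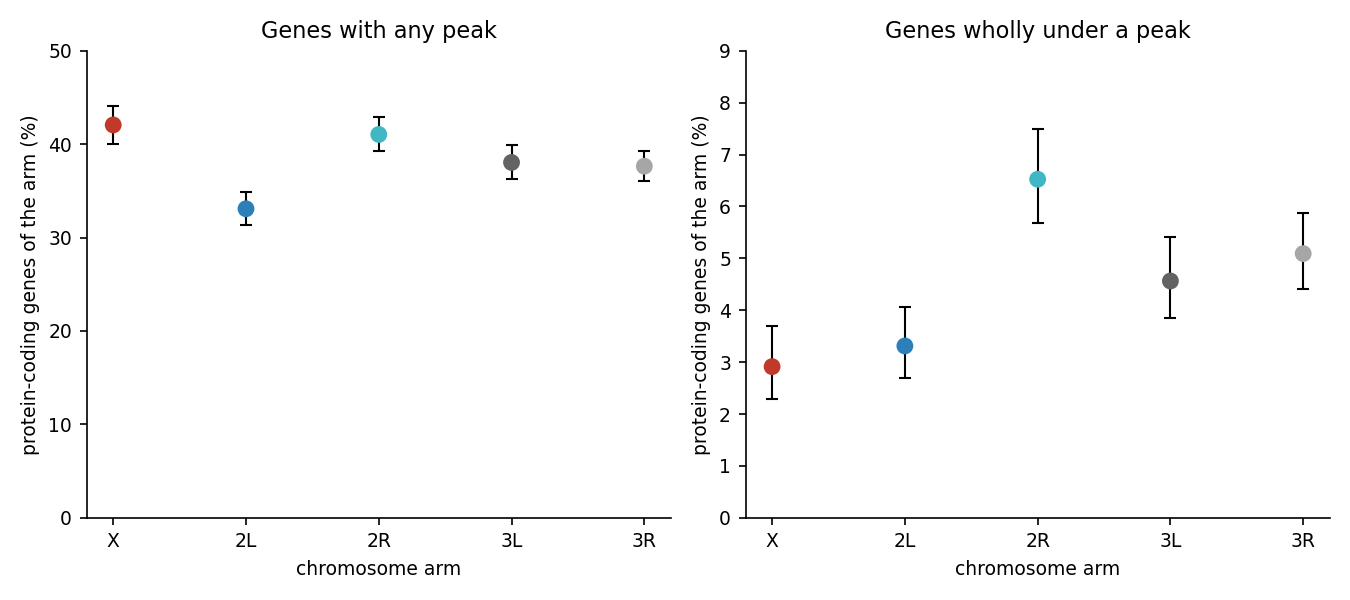
Share of the protein-coding genes of each arm with any peak (left) and wholly under a peak (right). Points are shares and bars are 95% Wilson intervals. Among the arms shown, X is highest on the left, at 42.1%, and lowest on the right, at 2.91%, with an interval that overlaps that of 2L.

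Longer genes meet a rule of 1 bp more easily, so shares were also compared within length classes. Weighted to the length mix of the autosomes in 7 length classes, the X share was 39.5%, beside 37.5% on the autosomes. This weighted share was below the unweighted 41.04% of 2R, and single autosome arms were not weighted. X was higher in 4 of the 7 classes. The largest gap in its favour was among genes of 2 to 5 kb, at 52.5% (95% CI 48.7 to 56.2) against 45.3% (95% CI 43.6 to 47.0). X was lower in the other 3 classes. The widest of these gaps was among genes of 50 kb or more, at 47.8% (95% CI 36.5 to 59.4) against 55.7% (95% CI 49.3 to 61.9), and at 10 to 20 kb the shares were 53.9% and 55.4%. Below 1 kb the X share was 10.9% (95% CI 8.05 to 14.5) against 14.6% (95% CI 13.2 to 16.05). The marked genes of that shortest class were covered to a median of 43.5% on X and 85.5% on the autosomes. Full coverage was rarer on X in each of the 5 classes below 20 kb, for instance 3.60% against 5.12% at 2 to 5 kb. No gene of 20 kb or more was filled on X or on these arms.

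**Figure D4:**
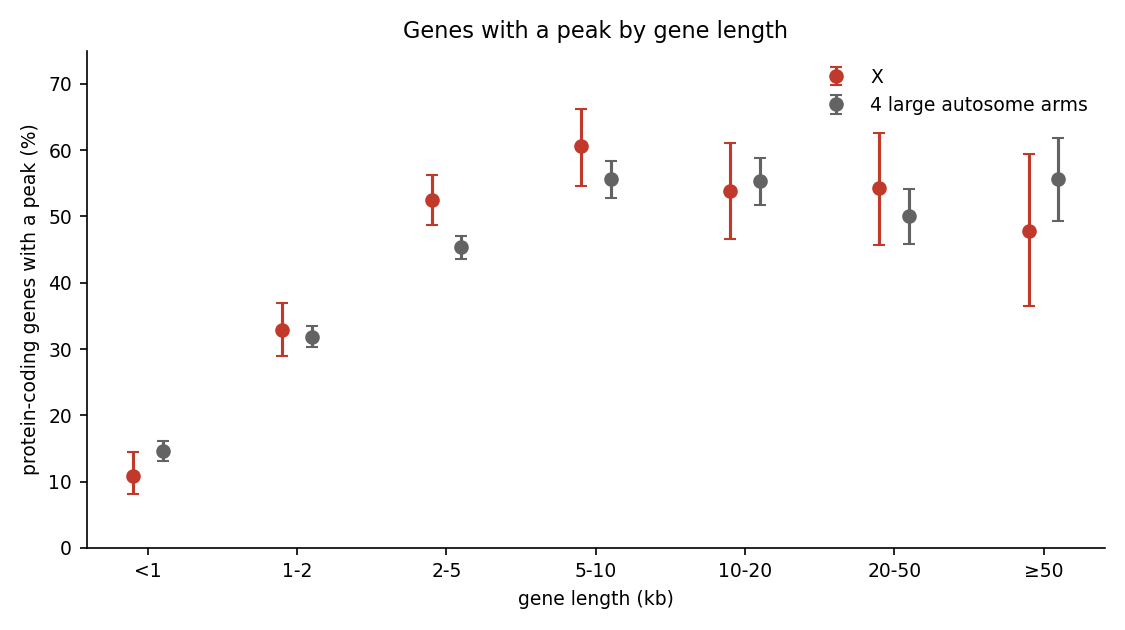
Protein-coding genes with a peak, in % of each gene length class (kb), on X (red) and on the 4 large autosome arms (grey). Bars are 95% Wilson intervals. The share rises from 10.9% below 1 kb to 60.6% at 5 to 10 kb on X, and the intervals of X and the autosomes overlap in all classes except 2 to 5 kb.

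Marked genes lay next to marked genes. The gene following a marked one along X was itself marked in 64.0% of cases, against 26.2% after an unmarked one, and the autosome arms had 59.2% to 65.4% and 20.1% to 24.1%. The longest run of marked genes on X had 15 members, from CG11696 to PhKgamma at X 11573731 to 11704394, and included the kinesin gene nod, the replication gene RPA3 and the juvenile hormone receptor gene Met. Those names were picked after the run was found. Runs on the autosome arms reached 12 to 17 genes. Many neighbours share a peak: 308 X peaks (23.6%) touched at least 2 protein-coding genes. Neighbours can also share sequence, as 885 of the 2197 protein-coding genes of X (40.3%) overlap another. The part of such overlaps in the shares above was not tested.

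The peak with most genes on X ran over 6 of them at X 1873851 to 1888650 (14.8 kb). It covered Vps26, a retromer subunit, CG14817, CG14805, CG14818 and Coa8 completely and entered trr, a methyltransferase of histone H3. The next peak, of 11.0 kb, began at X 1889801. It took in the other end of trr, all of the mitochondrial ribosomal gene mRpL16 and all of arm, the beta-catenin of Wingless signalling and adherens junctions, and ended in Ldaf1 (8.41% covered). Short neighbouring genes were covered jointly here, whereas kek5 and ovo had their peaks to themselves. Elsewhere a peak of 12.3 kb covered Rab18 and the ribosomal gene RpL35 together with most of CG4119 and Tre1, and 1 of 12.0 kb filled CG2533 and CG2247 beside rho-4 and CG1703.

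Long stretches without a peak took up 42.4% of X. There were 58 stretches of at least 100 kb between neighbouring peaks, 9.99 Mb in all, against 35.6% to 45.8% of the autosome arms. They wholly contained 523 protein-coding genes, or 23.8% of those on X, at 52.4 per Mb, whereas the rest of X had 124 per Mb. Genes are counted here and below only where they lie wholly within a stretch. Those inside had a median length of 1392 bp against 2874 bp elsewhere. Genes that cross an edge, such as Ten-a, count as elsewhere, so the rule itself tends to keep long genes out. How much of both differences comes from this rule was not tested. The longest stretch on X, 367 kb, was shorter than the longest on each of the 4 autosome arms, which ran from 478 kb on 2L to 1081 kb on 2R. Those on 2R, 3R and 3L wholly contained only 4, 0 and 3 protein-coding genes, and that on 2L contained 36. The stretch on 3R is not free of genes, as it runs between peaks in Myo81F and Pzl. In the bin from 2 to 3 Mb of 3R, 97.9% of the sequence lies in protein-coding gene bodies. How far this ranking depends on the gene-poor sequence included in each arm was not tested.

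The longest, X 20660851 to 21027450, held 17 protein-coding genes. Among them were shakB, a gap junction gene of neurons, the segmentation gene run, CG1835 and hydra. Small peaks of Cyp6v1 and CG1532 bounded it. The second, X 13842351 to 14206300 (364 kb), lay between AMPdeam and Prp16 with l(1)G0469. It held 28 genes, which is also the longest run of unmarked genes on X. They include mamo, a zinc finger gene, the ubiquitin-conjugating enzyme gene ben, the yolk receptor gene yl and 13 genes with Stellate names. All 14 genes with Stellate names on X were without a peak. They are near-identical testis-expressed repeats that share reads, so an empty call there is uncertain.

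The third stretch, X 22091601 to 22444650 (353 kb), held 21 genes, of which 19, including CG40813, CG46504, CG46505 and CG46506, have the same annotated length of 876 bp. Whether these genes share sequence, and so reads, was not tested. The fourth, X 14258001 to 14581050 (323 kb), ran from mud, a spindle orientation gene covered to 81.0%, to CG14414 and mRpS25. Inside were the synaptic immunoglobulin gene dpr8, the sodium leak channel gene na, Muc12Ea and CG9411. With the second and another of 164 kb beyond mRpS25, it lay largely in bin 15. The fifth, X 19890551 to 20157700 (267 kb), between Hers and Rab35, held 25 genes, including the dopamine receptor gene Dop2R, Nep3, aspr and CG15322.

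The Notch locus shows how sharply dense and empty sequence met. Notch (N, X 3134870 to 3172221), the receptor that sets the wing margin, was covered to 84.1% by peaks of 3100, 9750, 10000 and 8550 bp. The first began 781 bp inside the gene and the last ended before its other end. On the lower side lay 164 kb without a peak, in the long adhesion gene kirre. On the upper side lay 203 kb, which holds all of dnc, a cAMP phosphodiesterase gene of learning, and ends at Myc (59.9% covered, named after its value was seen). Within kirre, another empty stretch of 168 kb held 18 genes, among them the eye pigment transporter gene w. N was thus covered over most of its length, with long unmarked stretches on both sides.

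The longest X genes without a peak were dnc (167 kb), shakB (166 kb), mamo (144 kb), dpr8 (140 kb) and the potassium channel gene Sh (139 kb). They were followed by the photoreceptor kinase gene rdgA (122 kb), CG43867 (120 kb), Pde9 (112 kb), Cph (104 kb) and CG42340 (101 kb). Of 69 X genes of at least 50 kb, 36 had no peak, against 105 of 237 on the autosome arms.

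Gene lists of X members are given with their counts and the median share of the body under peaks, beside a median of 0% over all genes of X and over all 13922 genes. Beside each count stands the share with a peak among protein-coding genes of like length on all arms. Lists were chosen with earlier results of these data known, so their counts are descriptions.

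All 14 cytoplasmic ribosomal protein genes of X had a peak (34.6% in genes of like length), with a median coverage of 84.3%. Only 8 of them held the midpoint of a peak. RpL36, RpL35 and RpS14b were covered completely. RpS14a, at 24.3%, was the exception to high coverage, and it neighbours RpS14b, a near-identical copy that can share its reads. Mitochondrial ribosomal genes had peaks in 6 of 11 (23.5% in genes of like length) with a median of 24.5%, and 2 held a peak's midpoint. Of these mRpL16 was covered completely, mRpL30 to 83.2% and mRpS25 to 66.7%, and mRpL3 and mRpS14 had none. Housekeeping genes had peaks in 7 of 8 (51.9% in genes of like length) with a median of 48.1%. The highest were the RNA polymerase II gene Polr2A (97.0%), Chc (87.5%) and the myosin light chain gene sqh (74.0%). The lowest with a peak was flw (24.3%). Zw, which encodes glucose-6-phosphate dehydrogenase, had none.

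Chromatin regulators of X were marked in 11 of 12 cases, with a median coverage of 81.6% and 51.9% of genes of like length marked. The Brahma complex gene Bap60 was covered completely, the Polycomb gene ph-d to 99.5%, its neighbour and near-copy ph-p to 50.1%, and the co-repressor gene CoRest to 97.3%. HP1b, a heterochromatin protein gene, had no peak. Hmt4-20 (X 648483 to 656033), the enzyme that acts on H4K20me1 itself, lay under 1 peak to 86.3%. Cell cycle and repair genes had peaks in 7 of 8 (48.5% in genes of like length) but a median of 23.6%. In this list wapl (81.8%), Rbf (79.2%) and CycD (74.6%) were high, whereas Cdk7 and mei-41 were covered to 2.17% and 1.26%, and mei-9 had no peak.

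Signalling genes ranged from filled to empty. In the list of Wingless, Notch, Hedgehog and BMP genes, 7 of 8 had a peak (50.5% in genes of like length), with a median of 83.3%. Besides arm and N these were dx, a Notch regulator (93.4%), the Wingless receptor gene fz3 (83.3%), dsh (83.3%), sgg, and the secreted BMP antagonist gene sog at only 4.15%. The kinase gene fu of the Hedgehog pathway had none. In JAK/STAT signalling 2 of 5 had a peak (52.5% in genes of like length): the kinase gene hop was covered to 66.6% and the receptor gene dome to 57.7%, while the ligand genes upd1, upd2 and upd3 had no peak. All 3 ligand genes lay in 1 empty stretch of 236 kb. In the list of Ras pathway and related kinase genes all 4 X members had a peak (49.7% in genes of like length), from sgg (78.3%, also in the list above) and the phosphatase gene csw (53.6%) to the MEK gene Dsor1 (24.1%) and Raf (5.16%).

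Transcription factors of disc patterning covered a wide range. Of 15, 5 had a peak (47.5% in genes of like length), with ovo, br and sd covered to 69.8% or more, Bx to 25.9% and bi, the optomotor-blind gene, to 9.41% by 11 small peaks. The other 10, ac, sc, l(1)sc, ase, ct, oc, Lim1, run, B-H1 and B-H2, had none. Proneural genes start sensory organs, and ct, oc, Lim1, B-H1 and B-H2 encode homeodomain proteins. The proneural genes ac, sc, l(1)sc and ase span 93.1 kb, in which a single peak of 400 bp fell between them, in the overlapping long model CG32816. Adhesion genes all had a peak, 10 of 10 (53.0% in genes of like length), but with a median coverage of 29.2%. They ranged from 83.2% in kek5 and 74.5% in sdk, through 48.4% in Nrg, to 1.69% in kirre.

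In the sex determination list 3 of 8 genes had a peak (37.5%), near the 41.2% in genes of like length. Sxl, the switch gene that is active in females, carried 1 peak of 17.4 kb at X 7078751 to 7096100 that covered 73.8% of it. The X-linked signal genes sisA, sc, run and upd1, which act on Sxl in the early embryo, had no peak in the disc, nor did otu. The germline factor gene ovo was covered to 96.9% and snf to 12.6%. Of the non-coding roX RNAs, which act in males, roX2 (X 11579065 to 11580432) had no peak. The peak that reached 421 bp (7.70%) into roX1 was the 14.0 kb peak at the end of ec, and signal of ec and roX1 cannot be told apart there.

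Lists of genes known mainly from other organs had fewer members with a peak than genes of like length. Chemoreceptor genes had a peak in 1 of 25 (37.8% in genes of like length), Or2a at 53.9%, which did not hold the midpoint of its peak. Among those without were Gr10a and Or10a, which share 1 annotated span, and 13 of the 25 lay in stretches of at least 100 kb without a peak. None of 12 eggshell and yolk genes had one, against 41.8% in genes of like length, and fs(1)N and dec were the longest. With 12 independent genes this would allow a share of up to 25%. The genes are not independent: Cp7Fa, Cp7Fb, Cp7Fc, Cp36 and Cp38 lie close together, as do Yp1 and Yp2. None of 4 Cpr cuticle genes had one (31.2% in genes of like length), nor did the troponin genes wupA and up (55.8%). Counts of 0 in lists of 4 and 2 genes are too small to set a useful limit. Neuron markers had peaks in 3 of 14 (52.4% in genes of like length), namely elav (26.1%), the phospholipase gene norpA (22.0%) and rut (5.57%), and dnc, shakB and Sh were among the 11 without. A peak is not a measure of expression, so these lists show where the mark lies and do not check the tissue.

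Classical visible markers of X were mixed, with peaks in 8 of 14 (57.1%), beside 47.5% in genes of like length, and a median of 1.28%. VhaAC39-1, a proton pump subunit gene, was covered to 95.4%, ras to 40.2% and rb to 12.0%. The wing and cuticle gene m and the eye color gene w had no peak. In f, a bristle gene, 1 peak covered 0.312%. Without peaks of the narrowest width 5 of the 14 had a peak, and with only peaks at or above the median width of the list 2.

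**Figure D5:**
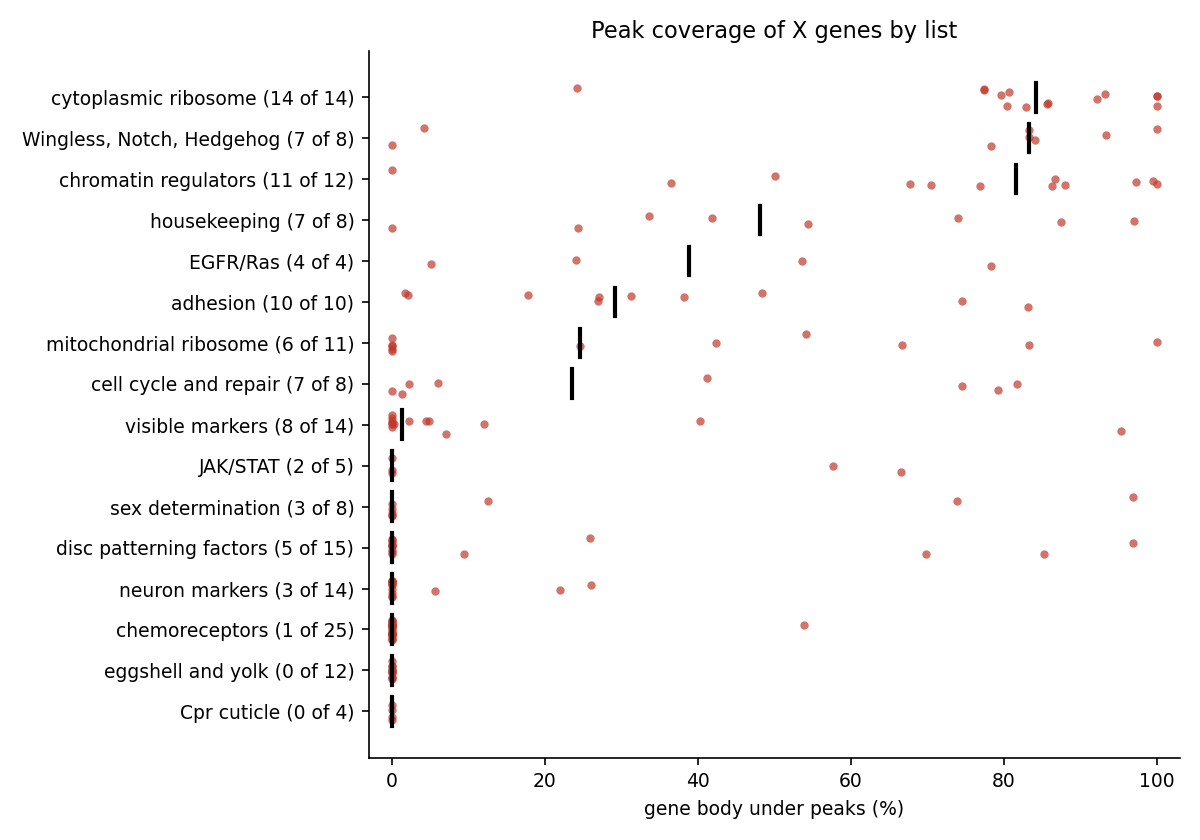
Share of each gene body under peaks (points, 1 per X gene) for 16 lists, with the median as a black bar and the number of members with a peak in brackets. Points are spread vertically at random. Cytoplasmic ribosomal, Wingless and Notch and chromatin genes lie mostly above 60%, and chemoreceptor, eggshell and cuticle genes lie at 0% with 1 exception.

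Among non-coding genes of X, peaks were found at 27 of 31 small nucleolar RNA genes, 10 of 58 microRNA genes, 26 of 241 long non-coding RNA genes and 2 of 24 transfer RNA genes. The autosome arms had 78.5%, 22.0%, 8.27% and 4.51% in these classes, and X 87.1%, 17.2%, 10.8% and 8.33%. Small nucleolar RNA genes commonly sit in introns of protein-coding hosts, so a peak there can belong to the host.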

How the data were processed

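The peak list was made by the authors from Oregon-R libraries and deposited as positions and widths in base pairs (column type: other), with no score. Build dm6 and the tools Bowtie2, SAMtools, bedtools, edgeR and deepTools are named per the submitters' processing notes, with no version or role. Which caller and threshold were used, and whether replicates were pooled, is not given in the sources used here, and the depth of every library is unknown. Every width fits positions counted from 1 with both ends included, on a 50 bp grid.

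Genes came from the NCBI RefSeq table of Release 6, the same build, without strand or exons. An overlap of 1 bp was enough to count a gene as having a peak. Arm spans end at the last gene or peak. Values were computed with Python 3.11.15, numpy 2.4.6, pandas 2.3.3 and scipy 1.17.1, and the interval functions made no error against base-by-base counting on 50 simulated sets. The members and the 18 lists were chosen with earlier results of these data known. Named genes are those under the 12 widest peaks, the 12 with the most covered sequence, the 10 longest without a peak, those in and beside the 5 longest stretches, those under the 5 peaks over most genes, and up to 3 marked and 2 unmarked members of each list, with roX1, roX2, Sxl and Hmt4-20. Other names were added to show loci or ranges within these lists. Older symbols were read as Raf, CoRest, dec and VhaAC39-1, the marker s was not matched, and rl and hbs lie off X. Settings tried instead are in the closing section.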

Additional observations from a re-analysis of the deposited data

Results flagged for a closer look

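The list from these female discs holds 2 peaks on the Y chromosome, at Y 995801 to 995950 and Y 3504301 to 3504450, each of the narrowest width, 150 bp. Neither overlaps any of the 123 genes annotated on Y in the RefSeq table. They stand out as peaks on a chromosome that the labelled sex does not carry. The report's comparisons do not use them, and their source was not tested.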

How the results depend on the processing

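No paired analysis was possible because the result is 1 peak list with no value per library, and for the same reason no replicate could be left out. With only peaks at or above the median width of the list, X had 27.7 peaks per Mb, 11.8% coverage, a median width of 2725 bp, 31.1% of genes with a peak, a longest stretch of 823850 bp and 98.4% of peak sequence in genes. Without the narrowest peaks these were 46.9 per Mb, 12.7%, 1500 bp, 39.1%, 461600 bp and 98.3%. Joining peaks less than 2 kb apart gave 35.01 per Mb, 15.7% and 2250 bp. Leaving out the 2 Mb next to the centromere gave 58.9 per Mb and 13.9%, and means over bins of 0.5, 1 and 5 Mb gave 12.9%, 13.1% and 14.6% coverage. The share of genes with a peak was 33.6% when genes had to hold a peak's midpoint, 18.0% at 50% coverage, 37.3% over all annotated genes and 39.1% over genes that overlap no other. All annotated genes held 98.4% of peak sequence.

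X exceeded the pooled 4 autosome arms, though not 2R alone, in peak density by 4.67 per Mb, and by 2.16 to 6.32 in all 8 alternatives. The difference in coverage, -0.291 points, changed sign in 2 of 11, to 1.09 in 5 Mb bins and to 0.0483 without 2R. The share of genes with a peak was 4.53 points higher, but -0.335 points at 50% coverage and 8.68 points over genes that overlap no other. The medians of width were equal, but X minus autosomes was -375 bp with peaks at or above the median width, -150 bp with joined peaks and 50 bp without 2R; the cause was not tested. List counts, tried after seeing the data, moved by over 1.5 times in 8 of 18 lists at 50% coverage, 4 under the midpoint rule, 2 with peaks at or above the median width and 1 without the narrowest peaks. Unknown depth limits every absence of a peak.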
